A study of Homo sapiens with 10 samples.

Results

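The TGF-beta ligands, receptors and SMADs were examined as a set of 10 genes, TGFB1, TGFB2, TGFB3, TGFBR1, TGFBR2, TGFBR3, SMAD2, SMAD3, SMAD4 and SMAD7, among 20098 protein-coding genes on chromosomes 1 to 22 and X. Membership rests on place in the pathway, and the list was drawn up with earlier results of these data known. Every peak that shared at least 1 base with the bounds of a gene widened by 50 kb was assigned to that gene, which gave 220 of the 128837 peaks in the 4 lists. A promoter peak was one within 1 kb of any annotated start site of the gene.

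The data came from MDAMB231, an established human breast cancer cell line with a mesenchymal phenotype, grown in DMEM with 5% FBS and no treatment. Chromatin immunoprecipitation with sequencing (ChIP-seq) was carried out for H3K4me3, found mainly at active promoters, for H3K27Ac, found at active promoters and enhancers, and for H3K4me1, found mainly at enhancers. Formaldehyde-assisted isolation of regulatory elements (FAIRE-seq), from cells crosslinked with 1% formaldehyde, recovers DNA that is depleted of nucleosomes. Each assay had 2 samples, with 1 input sample for ChIP and 1 for FAIRE, making 10 samples in all.

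For each assay the authors called peaks on the combined samples, so there was 1 list per assay and no peak has a replicate error. The lists held 18019 H3K4me3, 37495 H3K27Ac, 26771 H3K4me1 and 46552 FAIRE peaks, and sequencing depth is unknown from the lists. No test between groups could be made with 1 cell line and 1 condition, and all values below are descriptions, set beside the value for all protein-coding genes or for the whole list where one was computed. Histone peaks carry a score derived from the p-value of the peak caller, on a scale where 10 stands for a p-value smaller by a factor of 10. This score piled up at 3100, a value reached or passed by 56.8% of H3K4me3 and 10.5% of H3K27Ac peaks. Of these, 10066 of 10237 H3K4me3 and 3670 of 3928 H3K27Ac peaks had exactly 3100 and are tied. FAIRE peaks carry the height of their signal, with a list median of 61.1.

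The label of the cell line was checked against marker genes. All 6 markers of this line (VIM, CD44, AXL, EGFR, ZEB1 and CAV1) had promoter peaks in all 4 lists, as did 13.1% of protein-coding genes. Of 6 luminal epithelial markers, 5 had promoter H3K4me3, 3 promoter H3K27Ac and 3 promoter FAIRE. Among all protein-coding genes the shares were 67.3%, 63.5% and 39.3%, so these luminal counts were not far from the background. EPCAM had promoter peaks in all 4 lists, as the markers of the line did, and GATA3 had H3K4me3 and H3K27Ac. No promoter H3K27Ac was found at ESR1, PGR or FOXA1, although FOXA1 had promoter FAIRE. CDH1 had promoter H3K27Ac and FAIRE but no promoter H3K4me3. The 3 leukocyte markers and the endothelial marker CDH5 had no promoter peak in any list, and 1 of 2 hepatocyte markers, APOA1, had promoter H3K4me3 and H3K27Ac.

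TGF-beta ligands are secreted in a latent form and, once released, bind the type II receptor TGFBR2, which recruits and phosphorylates the type I receptor TGFBR1. The active receptor phosphorylates SMAD2 and SMAD3, which join SMAD4, enter the nucleus and bind DNA together with other transcription factors, while SMAD7 is induced and feeds back on the receptor. In normal breast epithelium the pathway restrains growth, and in advanced breast cancer it is known for its part in epithelial-mesenchymal transition, invasion and bone metastasis.

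All 10 genes carried promoter H3K4me3, against 67.3% of protein-coding genes, and all 10 carried promoter H3K27Ac, against 63.5%. Both marks were therefore present together at 10 of 10 genes, compared with 61.3% of protein-coding genes. Promoter H3K4me1 was found at 5 genes (TGFB2, TGFBR2, TGFBR3, SMAD3 and SMAD7), against a background of 20%. Promoter FAIRE peaks were found at 5 genes (TGFB2, TGFB3, TGFBR2, SMAD3 and SMAD7), which is close to the background of 39.3%. TGFB2, TGFBR2, SMAD3 and SMAD7 had promoter peaks in all 4 lists, as did 13.1% of protein-coding genes. These 4 genes are a ligand, a receptor, a signalling SMAD and the inhibitory SMAD. At SMAD3 and SMAD7 the peaks lay at different start sites, and no single start site had peaks of all 4 lists.

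The counts for H3K4me1 and FAIRE depended on which start sites were used. When start sites closer than 1 kb to each other were joined, the 10 genes had 58 groups of start sites. Of these, 18 had H3K4me3 (31.0%, against 28.3% of 62175 groups of all protein-coding genes), 25 H3K27Ac (43.1% against 29.9%), 8 H3K4me1 (13.8% against 9.81%) and 11 FAIRE (19% against 15.7%). At the group holding the canonical start site, H3K4me1 was present at 3 genes (TGFB2, TGFBR2 and TGFBR3), against 13.1% of 19819 protein-coding genes. FAIRE was present there at 3 genes (TGFB2, TGFB3 and TGFBR2), close to the background of 32.4%. At SMAD3 and SMAD7 both were seen only at internal start sites. With the most upstream start site alone, 2 genes had H3K4me1 (11.9% of protein-coding genes) and 3 had FAIRE (30.6%). In lists restricted to scores of at least 100 and FAIRE heights at or above the median, 2 genes had each (11.2% and 24.4%). With the centre of the peak inside the promoter, 2 genes had H3K4me1 (8.64%) and 5 had FAIRE (37.1%).

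**Figure D1:**
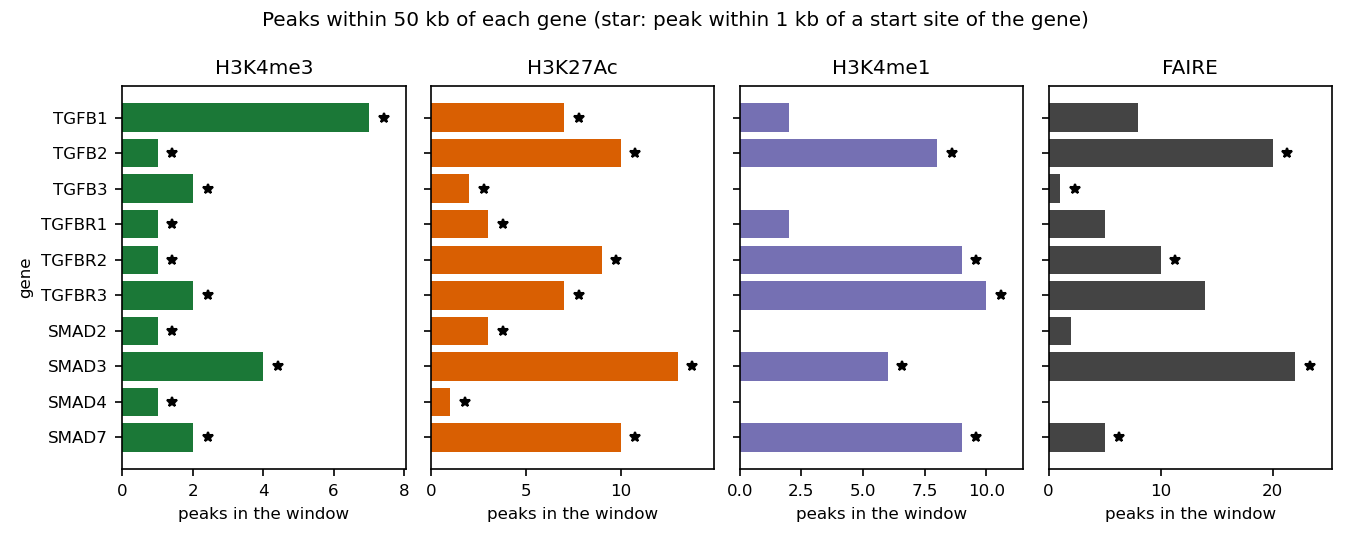
Number of peaks in each list (x axis, peaks in the gene bounds widened by 50 kb) for each of the 10 genes (y axis), with a star where the gene has a promoter peak. H3K4me3 and H3K27Ac stars stand at all 10 genes, whereas FAIRE peaks range from 0 at SMAD4 to 22 at SMAD3.

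The windows held 22 H3K4me3, 65 H3K27Ac, 46 H3K4me1 and 87 FAIRE peaks, as shown in the plot of peaks per gene. Per 100 kb of window, the median of the 10 genes was 0.652 H3K4me3 peaks, below the median of 1.39 for all protein-coding genes. It was higher than that of all genes for H3K27Ac (3.37 against 2.11), H3K4me1 (1.96 against 0.810) and FAIRE (4.05 against 1.98). Single genes departed from these medians. H3K4me3 density was above that of the median protein-coding gene at TGFB1, TGFB3, SMAD3 and SMAD7, and TGFB3, SMAD2 and SMAD4 were below it in the other 3 lists. TGFB3, SMAD2 and SMAD4 had no H3K4me1 peak in the window, which is close to the 37.3% of protein-coding genes without one. SMAD4 was the 1 gene of 10 with no FAIRE peak, compared with 14.9% of protein-coding genes.

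A distal peak was one with no base within 1 kb of a start site of any gene. An H3K4me1 peak that was distal and shared a base with both an H3K27Ac and a FAIRE peak was taken as open and acetylated, a state usual for active enhancers. There were 20 such peaks in 6 windows, those of TGFB2, TGFBR1, TGFBR2, TGFBR3, SMAD3 and SMAD7, against 33.2% of protein-coding genes with at least 1. TGFB2, TGFBR2, TGFBR3 and SMAD3 had 4 each, and 3.85% of protein-coding genes had at least 4. TGFBR1 and SMAD7 had 2 each, and the remaining genes had 0. Windows differed in length, and per 100 kb the 4 genes stood above 97.5% (TGFB2), 97.9% (TGFBR2), 91.3% (TGFBR3) and 95.5% (SMAD3) of protein-coding genes. SMAD7 and TGFBR1, with 2 each, stood above 93.9% and 92.1% by the same measure, and so both above TGFBR3. In the stricter lists there were 11 such peaks, and with windows widened by 20 kb there were 10. Under either setting no gene kept 4, with 3 at TGFBR2 and TGFBR3, 2 at TGFB2 and SMAD3, and 0 at SMAD7. With windows widened by 100 kb there were 29, of which 8 were at TGFBR2, 3 at TGFB3 and 1 at SMAD2.

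Among the ligands, TGFB1 encodes the most widely expressed form (chr19:41807492-41859827, minus strand, GRCh37). Its promoter H3K4me3 peak was 4543 bp wide, wider than that of 90.2% of the 13532 protein-coding genes with one, and its promoter H3K27Ac peak was 4138 bp wide with a score of 2397. Neither H3K4me1 nor FAIRE was found at its start sites. The 250 bases upstream of the canonical start site held 6 GC boxes (GGGCGG on either strand), between 34 and 191 bases from it, and 76.8% of these bases were G or C.

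Much of the chromatin around TGFB1 belonged to its neighbours. Start sites of 7 other protein-coding genes lay in its window, and all 7 had promoter H3K4me3 and H3K27Ac. The tallest FAIRE peak in the window, with a height of 225, lay at the start of HNRNPUL1, 89.8 kb downstream of the TGFB1 start site. Of the 2 distal H3K27Ac peaks, the wider spanned 8121 bp inside TGFB1 at 29.0 kb, where the nearest coding start site was that of CCDC97 at 5.19 kb. The tallest distal FAIRE peak with H3K27Ac reached 85.5 at 31.6 kb, in an intron shared by the annotations of TGFB1 and CCDC97. An H3K4me1 peak of 10501 bp at 29.4 kb, with a score of 504, overlapped both. It came within 1 kb of an annotated start site, so it did not count as distal, and the window had no open acetylated distal H3K4me1 peak.

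TGFB2 encodes a ligand that needs the co-receptor TGFBR3 for efficient binding to TGFBR2 (chr1:218518678-218617961, plus strand). Its promoter H3K4me3 peak spanned 8197 bp, wider than 99.4% of those of other genes and the widest of the 10. The H3K27Ac peak over it spanned 9334 bp, H3K4me1 lay at its upstream edge at -1.18 kb with a score of 57.2, and 2 promoter FAIRE peaks had heights of 56.1 and 50.9. In all, its window held 10 H3K27Ac, 8 H3K4me1 and 20 FAIRE peaks, and 27% of it lay in H3K27Ac peaks, a share above that of 97.6% of protein-coding genes. Here and below, positions in kb are those of the peak centre from the canonical start site, negative upstream.

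The widest H3K27Ac peaks of TGFB2 beyond its promoter lay in an intron and downstream of the gene. In the intron, an H3K4me1 peak of 17783 bp at 32.5 kb covered an H3K27Ac peak of 9043 bp and FAIRE peaks with heights of 70.9, 172 and 83.0. The height of 172 was above that of 99.4% of the FAIRE list and was the highest at any distal site of the 10 genes. Beyond the end of the gene, 4 H3K27Ac peaks between 117 and 152 kb spanned 7073, 11074, 7445 and 9975 bp, each with a score of 3100. H3K4me1 lay at each of the 4 sites, with the highest score, 833, at the last. The FAIRE peaks there had heights between 49.4 and 114, and those that shared sequence with the last site lay outside the window. The nearest coding start site to all 4 was that of TGFB2, and the first and last came within 1 kb of an annotated start site and did not count as distal. Narrower H3K27Ac peaks with FAIRE lay at -14.8, 80.7 and 91.6 kb, of which the one at 80.7 kb also had H3K4me1.

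The sequences at 2 of these sites are shown because they carry the tallest distal FAIRE peak and the tallest with an AP-1 motif in its middle. Each is the 250 bases at the middle of the peak, from the plus strand of GRCh37, and the middle is not a measured summit. The first lay at chr1:218550964-218551213 in an intron and the second at chr1:218636938-218637187 in intergenic sequence, 118 kb from the start site, in a FAIRE peak with a height of 80.4. AP-1, the JUN and FOS family of factors, binds TGANTCA, where N is any base, and capitals mark that motif. The first sequence held no match to AP-1, to the SMAD palindrome GTCTAGAC or to the CAGA box AGCCAGACA.
TGFB2 intron, 32.4 kb: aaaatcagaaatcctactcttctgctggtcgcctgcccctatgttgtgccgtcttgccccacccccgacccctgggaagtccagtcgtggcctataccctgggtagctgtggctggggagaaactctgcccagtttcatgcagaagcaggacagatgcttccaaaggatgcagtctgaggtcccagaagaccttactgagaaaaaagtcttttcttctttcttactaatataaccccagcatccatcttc
TGFB2 downstream, 118 kb: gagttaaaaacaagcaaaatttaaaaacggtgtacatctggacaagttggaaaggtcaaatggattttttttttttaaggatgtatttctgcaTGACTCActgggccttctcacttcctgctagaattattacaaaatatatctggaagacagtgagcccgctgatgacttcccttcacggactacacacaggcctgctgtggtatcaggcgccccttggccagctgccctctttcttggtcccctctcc

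TGFB3 encodes a ligand known for its part in palate and lung development (chr14:76424440-76449354, minus strand), and its chromatin was sparse. The promoter H3K4me3 peak of 2514 bp was the narrowest of the 10, wider than 28.1% of those of all genes, and the H3K27Ac peak there had a score of 411. A single FAIRE peak, with a height of 49.4, lay at 0.266 kb. The other H3K4me3 and H3K27Ac peaks in the window lay at the start of the neighbouring gene IFT43, and no distal peak of any list was found.

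**Figure D2:**
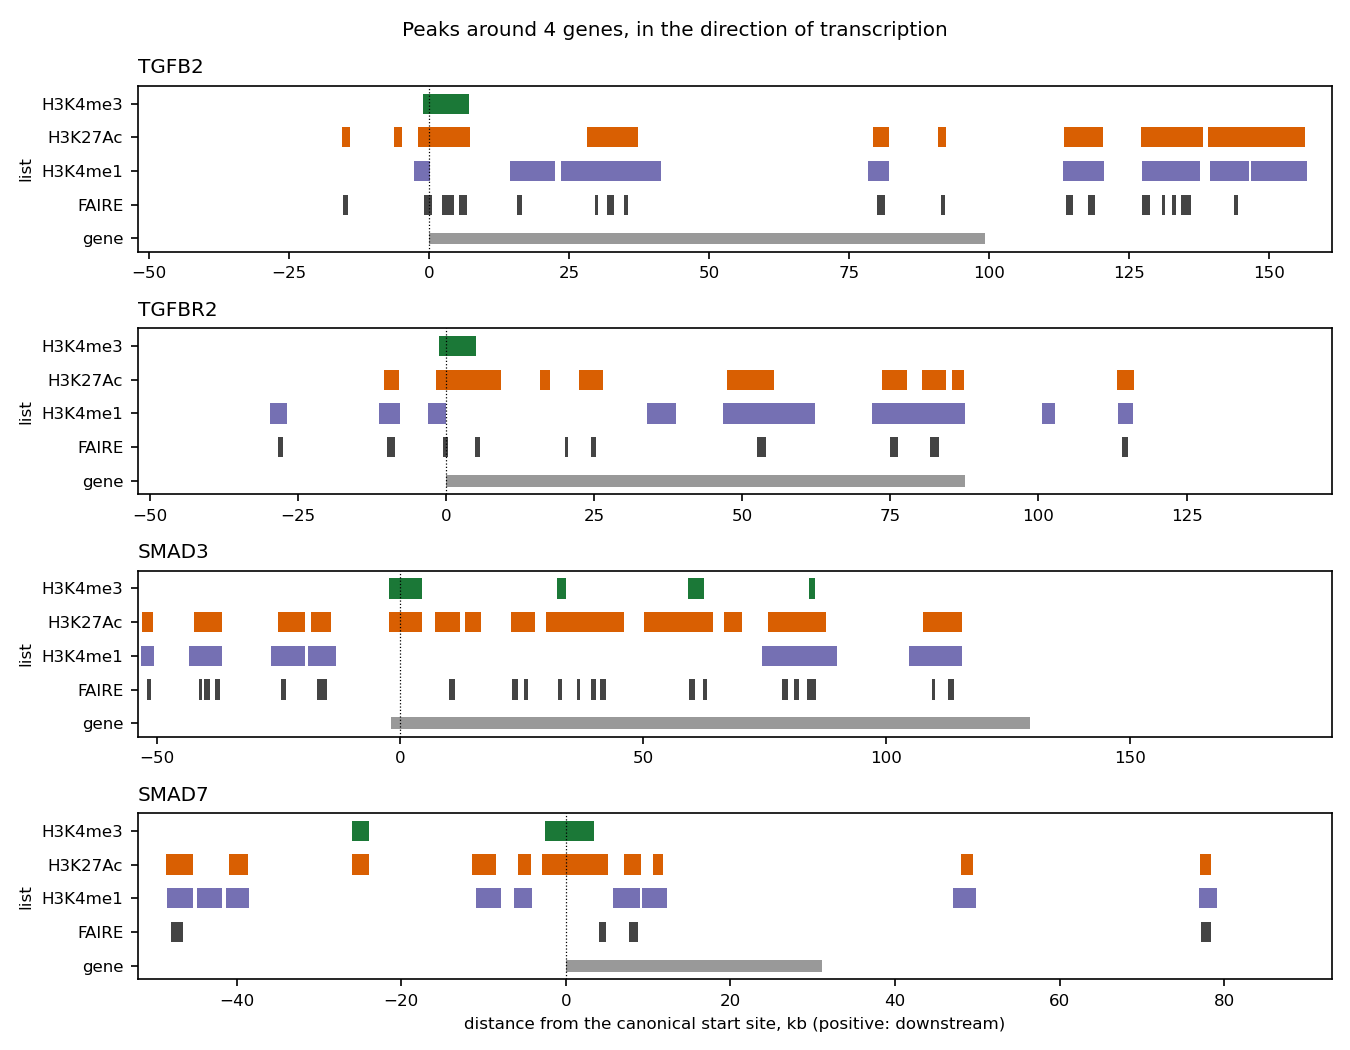
Peaks of the 4 lists as bars to scale (y axis, list; x axis, kb from the canonical start site in the direction of transcription) around TGFB2, TGFBR2, SMAD3 and SMAD7, with the gene in grey. TGFB2 has acetylated sites up to 152 kb, SMAD3 H3K27Ac along most of the first part of the gene, and SMAD7 H3K27Ac and H3K4me1 mostly without FAIRE.

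Among the receptors, TGFBR1 encodes the type I receptor kinase (chr9:101866320-101916474, plus strand). Promoter H3K4me3 of 3387 bp was wider than that of 66.8% of genes, promoter H3K27Ac had a score of 2381, and no H3K4me1 or FAIRE was found at its start sites. Its 2 distal H3K27Ac peaks both lay upstream, both with H3K4me1 and FAIRE. The wider, of 6816 bp with a score of 3090, lay at -48.0 kb in an intron of COL15A1, whose start site was closer to it, at 18.4 kb. The tallest FAIRE peak of the window, with a height of 96.5, lay in it at -47.0 kb. The other distal site, at -33.4 kb, was intergenic, with an H3K27Ac score of 384.

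TGFBR2 encodes the type II receptor kinase that binds the ligand (chr3:30648093-30735634, plus strand), and it was among the genes with the most elements. The promoter H3K4me3 peak spanned 6304 bp, wider than 97.8% of those of all genes, and the H3K27Ac peak 10920 bp, wider than 97.9%. The promoter FAIRE peak at -0.138 kb had a height of 131, the highest at a promoter of the 10 genes. H3K4me1 lay just upstream, at -1.56 kb with a score of 90.9. This promoter was open and acetylated, with H3K4me1 on its upstream side only.

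The 250 bases upstream of the TGFBR2 start site (chr3:30647843-30648092, plus strand) are shown because the tallest promoter FAIRE peak covers them. Capitals mark 2 GC boxes (GGGCGG), at 193 and 75 bases from the start site, and 1 CCAAT box (CCAAT, here on the opposite strand), at 132 bases. Of these bases 58.4% were G or C.
TGFBR2 promoter: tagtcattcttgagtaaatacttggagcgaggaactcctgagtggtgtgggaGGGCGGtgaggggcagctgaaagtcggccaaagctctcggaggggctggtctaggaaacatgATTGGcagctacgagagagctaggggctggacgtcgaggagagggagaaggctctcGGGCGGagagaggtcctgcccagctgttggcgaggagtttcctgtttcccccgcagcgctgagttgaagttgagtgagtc

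With promoter peaks included, the window of TGFBR2 held 9 H3K27Ac, 9 H3K4me1 and 10 FAIRE peaks, of which 6, 7 and 6 were distal. The largest distal site was an H3K27Ac peak of 7991 bp with a score of 3100 at 51.4 kb, inside an H3K4me1 peak of 15523 bp, with a FAIRE peak of height 123 at 53.2 kb. Further sites with H3K27Ac, H3K4me1 and FAIRE lay at -9.20, 82.4 and 115 kb. H3K4me1 without H3K27Ac was found at -28.2, 36.4 and 102 kb, of which the first had FAIRE, with a height of 50.2. The distal FAIRE peak at 5.36 kb, with a height of 72.4, lay in the first part of the gene within the promoter H3K27Ac peak, and its middle (chr3:30653330-30653579, plus strand, intron) held an AP-1 motif, marked in capitals.
TGFBR2 intron, 5.36 kb: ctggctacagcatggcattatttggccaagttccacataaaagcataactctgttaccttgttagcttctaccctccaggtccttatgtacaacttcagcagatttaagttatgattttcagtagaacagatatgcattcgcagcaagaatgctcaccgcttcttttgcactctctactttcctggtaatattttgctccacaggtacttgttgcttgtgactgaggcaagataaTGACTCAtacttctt

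TGFBR3 encodes betaglycan, a co-receptor that presents TGFB2 to the signalling receptors (chr1:92145900-92371892, minus strand), and it was the longest of the 10 genes at 226 kb. Its promoter had H3K4me3 of 3083 bp, H3K27Ac with a score of 1299 and H3K4me1 with a score of 74.1, but no FAIRE. The most upstream start site, at -20.2 kb from the canonical one, had no peak of any list. All 14 FAIRE peaks of the window were distal, and 8 of them shared sequence with H3K27Ac. Of the 14, 10 lay in introns of the gene and 4 in intergenic sequence, 2 past its end and 2 upstream.

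The tallest FAIRE peak of TGFBR3, with a height of 133, lay in an intron at 81.7 kb in H3K4me1 without H3K27Ac. The next, with heights of 123 and 117, both had H3K27Ac and H3K4me1. One was intergenic at 236 kb, past the end of the gene, and the other lay in an intron at 153 kb, beneath the widest distal H3K27Ac peak (3229 bp, score 740). An H3K4me3 peak at 34.7 kb, with a score of 122, coincided with H3K27Ac although no start site lay within 1 kb. The middle of the site at 153 kb (chr1:92198224-92198473, plus strand) is shown for its AP-1 motif, in capitals.
TGFBR3 intron, 153 kb: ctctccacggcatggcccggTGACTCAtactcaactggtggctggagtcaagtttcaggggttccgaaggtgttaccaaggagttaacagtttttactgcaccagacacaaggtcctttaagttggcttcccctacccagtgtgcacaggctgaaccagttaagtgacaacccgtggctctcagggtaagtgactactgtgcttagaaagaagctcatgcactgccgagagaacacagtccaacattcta

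Of the receptor-activated SMADs, SMAD2 had few peaks and SMAD3 the most. SMAD2, which relies on its partners to reach DNA (chr18:45335328-45457517, minus strand), had promoter H3K4me3 of 3599 bp and H3K27Ac of 4002 bp with a score of 1848. No H3K4me1 was found in its window. The single distal H3K27Ac peak, of 1592 bp at -37.8 kb, had a score of 180 and no FAIRE. Its FAIRE peaks had heights of 50.6 at -15.0 kb, without H3K27Ac, and 32.3 at 48.5 kb.

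SMAD3, the DNA-binding receptor-activated SMAD (chr15:67356101-67487511, plus strand), had 13 H3K27Ac and 22 FAIRE peaks, the most of the 10 genes in both lists. H3K27Ac peaks covered 39.2% of its window, above the share of 99.7% of protein-coding genes. The promoter H3K4me3 peak spanned 6751 bp, wider than 98.4% of those of all genes, and the H3K27Ac peak 6842 bp with a score of 3100. No FAIRE or H3K4me1 peak was found at the canonical start site. Its 250 upstream bases (chr15:67357690-67357939, plus strand) are shown for contrast with the open promoter of TGFBR2, with 4 GC boxes in capitals and a G and C content of 80.8%.
SMAD3 promoter: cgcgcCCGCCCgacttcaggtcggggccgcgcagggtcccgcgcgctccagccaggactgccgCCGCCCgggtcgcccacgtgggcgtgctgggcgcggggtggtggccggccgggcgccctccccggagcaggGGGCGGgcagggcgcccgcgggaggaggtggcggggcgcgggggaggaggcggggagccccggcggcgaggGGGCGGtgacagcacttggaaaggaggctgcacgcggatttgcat

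Inside SMAD3, 3 wide H3K27Ac peaks followed the promoter, of 15988 bp at 38.1 kb, 14213 bp at 57.3 kb and 11851 bp at 81.6 kb. The first was wider than 99.7% of the H3K27Ac list. Each of the 3 contained an H3K4me3 peak, at 33.2, 60.9 and 84.8 kb with scores of 148, 483 and 72.9, and those at 33.2 and 60.9 kb lay at internal start sites of SMAD3. FAIRE heights there reached 117 at 41.8 kb, 118 at 62.7 kb and 126 at 85.1 kb. H3K4me1 was absent from the first and second of these domains and covered the third with a peak of 15422 bp and a score of 869.

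Upstream of SMAD3, 4 intergenic sites between -51.8 and -16.2 kb each had H3K4me1, H3K27Ac and FAIRE. The widest H3K27Ac peak among them, of 5718 bp with a score of 2748, lay at -39.5 kb. All 17 distal FAIRE peaks of SMAD3 shared sequence with H3K27Ac, and SMAD3 was the nearest coding gene to all 17. The middle of the intronic FAIRE peak at 25.9 kb (chr15:67383676-67383925, plus strand) is shown, with its AP-1 motif in capitals. This peak, with a height of 113, was the tallest of the 17 with the motif in its middle.
SMAD3 intron, 25.9 kb: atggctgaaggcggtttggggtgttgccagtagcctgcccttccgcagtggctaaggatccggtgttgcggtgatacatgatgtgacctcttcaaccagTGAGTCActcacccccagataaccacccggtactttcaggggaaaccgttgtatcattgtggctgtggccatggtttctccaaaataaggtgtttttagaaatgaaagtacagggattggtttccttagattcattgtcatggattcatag

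SMAD4, the partner shared by all receptor-activated SMADs (chr18:48554898-48611415, plus strand), had the fewest peaks. Its window held 1 H3K4me3 peak of 2850 bp and 1 H3K27Ac peak of 2568 bp with a score of 1019, both at the promoter, and no H3K4me1 or FAIRE. H3K27Ac covered 1.64% of the window, a share above that of 18.4% of protein-coding genes. At this gene the lists showed a marked promoter and no distal element.

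SMAD7, the inhibitory SMAD that recruits ubiquitin ligases to the receptor (chr18:46446223-46477335, minus strand), was dense in histone marks. Its window had 10 H3K27Ac and 9 H3K4me1 peaks, and its 8 distal H3K27Ac peaks gave 6.10 per 100 kb, above the density of 99.9% of protein-coding genes. Several of these peaks were close to the calling threshold. With scores of at least 100, an alternative chosen after seeing the data, 5 distal H3K27Ac peaks remained, or 3.81 per 100 kb (above 99.2% of genes), and 3 of the 9 H3K4me1 peaks. Promoter H3K4me3 spanned 5926 bp, wider than that of 97.0% of genes, and promoter H3K27Ac 7951 bp. Of the distal H3K27Ac peaks, 7 had H3K4me1 but 2 had FAIRE (25.0%), whereas 74.1% of all distal H3K27Ac peaks of the list had FAIRE. Distal acetylated sites around SMAD7 were therefore mostly not called open.

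The tallest FAIRE peak in the SMAD7 window, with a height of 48.5 at an internal start site, was below the list median of 61.1. The tallest distal FAIRE peak with H3K27Ac had a height of 43.9 and lay in an intron at 4.43 kb. The widest distal H3K27Ac peak, of 3213 bp with a score of 1257, lay at -47.0 kb with a FAIRE peak of height 36.0. An H3K4me3 peak with a score of 2637 lay at -24.9 kb together with H3K27Ac, and no start site of any annotated gene lay within 1 kb of it. SMAD2, SMAD4 and SMAD7 are all on chromosome 18, where the median H3K27Ac score (400) and the median FAIRE height (37.4) were the lowest of 23 chromosomes, compared with 591 and 61.1 over the whole lists. SMAD7 was not poor in FAIRE peaks by number, with 3.81 per 100 kb against a median of 1.98. By number, chromosome 18 had 13.7 FAIRE peaks per Mb, which was rank 6 of 23 counted from the lowest. The part of the chromosome in the few FAIRE peaks of SMAD2 and SMAD4 and in the low heights at SMAD7 was not tested.

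SMAD complexes bind the palindrome GTCTAGAC, so the promoters were searched for it. None of the 10 held it in the 250 bases upstream of the canonical start site (0.172% of 19818 protein-coding promoters did) or within 1 kb on either side (1.09% of 19819 did). In the widest promoter H3K4me3 peak of each gene, 1 of the 10 held a match, SMAD7, compared with 242 of 13532 protein-coding genes (1.79%) and with 22 of the 401 whose peak was at least as wide as that of SMAD7 (5.49%). The search within H3K4me3 peaks was added after the match at SMAD7 had been seen, so this count was known beforehand and tests nothing. The match lay 1.25 kb upstream of the SMAD7 start site, at chr18:46478588-46478595. The 250 bases around it (chr18:46478467-46478716, minus strand) are shown because SMAD7 is itself a target of the pathway, and capitals mark the palindrome. The distal FAIRE peak at -47.3 kb (chr18:46524493-46524742, plus strand, intergenic) follows, with its AP-1 motif in capitals. No FAIRE peak covered the palindrome.
SMAD7 upstream, 1.25 kb: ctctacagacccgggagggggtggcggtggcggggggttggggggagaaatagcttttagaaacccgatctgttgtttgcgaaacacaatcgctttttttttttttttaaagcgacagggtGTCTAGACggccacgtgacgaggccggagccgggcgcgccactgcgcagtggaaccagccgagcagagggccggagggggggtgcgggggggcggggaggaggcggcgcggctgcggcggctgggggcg
SMAD7 upstream, AP-1: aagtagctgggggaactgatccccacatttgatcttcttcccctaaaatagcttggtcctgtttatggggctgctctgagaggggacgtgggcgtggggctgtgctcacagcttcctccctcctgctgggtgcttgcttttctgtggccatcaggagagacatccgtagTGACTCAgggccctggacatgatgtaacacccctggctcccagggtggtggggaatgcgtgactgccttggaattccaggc

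**Figure D3:**
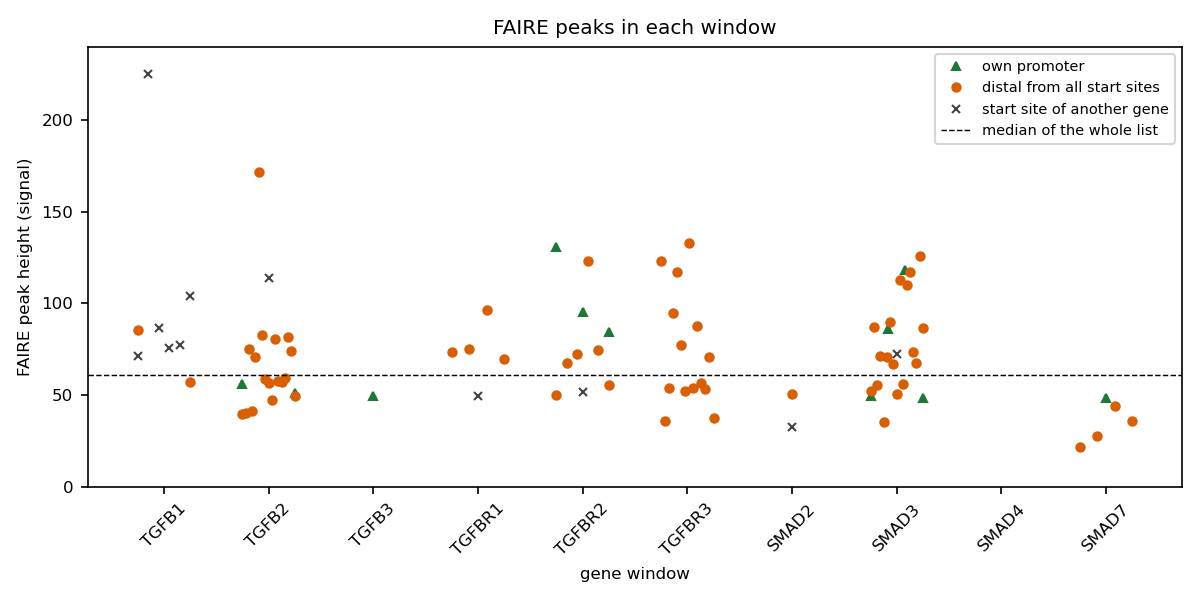
Height of each FAIRE peak (y axis, signal) in the window of each gene (x axis), by whether it lies at a promoter of the gene, is distal, or lies at a start site of another gene. The dashed line is the list median of 61.1, and all 5 peaks of SMAD7 lie below it, whereas TGFB2 has a distal peak of 172.

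Across the 10 genes, AP-1 was the most frequent motif searched in open chromatin, but it was no more frequent than elsewhere. It was present in the middle 250 bases of 30 of the 87 FAIRE peaks (34.5%), against 34.7% of 46535 FAIRE peaks in all. Of the 65 distal FAIRE peaks, 26 held it (40.0%), close to the 39.1% of 34817 distal FAIRE peaks in all. By gene, it was found in 9 of 22 FAIRE peaks at SMAD3, 7 of 14 at TGFBR3, 6 of 20 at TGFB2 and 3 of 5 at SMAD7. It was found in 3 of 10 at TGFBR2, 1 of 8 at TGFB1, 1 of 2 at SMAD2, 0 of 5 at TGFBR1 and 0 of 1 at TGFB3. At the 7 genes that had a distal FAIRE peak with H3K27Ac, the middle 250 bases of the tallest held no AP-1 motif.

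Other motifs were also near their background. The TEAD motif GGAATG was found in 20.7% of the FAIRE peaks of the 10 genes, against 18.3% of all. The GC box was found in 8.05% against 10.4%, and the CCAAT box in 25.3% against 33.2%. The SMAD palindrome and the CAGA box, which share the letters AGAC, were found in 0 of 87, against 0.157% and 0.410% of all FAIRE peaks. All motifs were searched on both strands, in FAIRE peaks only in the middle 250 bases, and a match describes the letters only.

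In the 250 bases upstream of the canonical start site, 6 of 10 genes had a GC box, close to the 59.2% of protein-coding promoters. CCAAT was found at 3 of 10 (TGFBR1, TGFBR2 and SMAD4) against 34.2%, and the TEAD motif at 1 of 10 (TGFB2) against 9.85%. AP-1 and the CAGA box were found at 0 of 10, with 4.70% and 0.252% of all promoters. The G and C content ranged from 48.0% at SMAD7, 49.2% at TGFB3 and 50.4% at TGFB2 to 84.4% at SMAD2, with a median of 71.0% against 63.2% for all promoters.

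**Figure D4:**
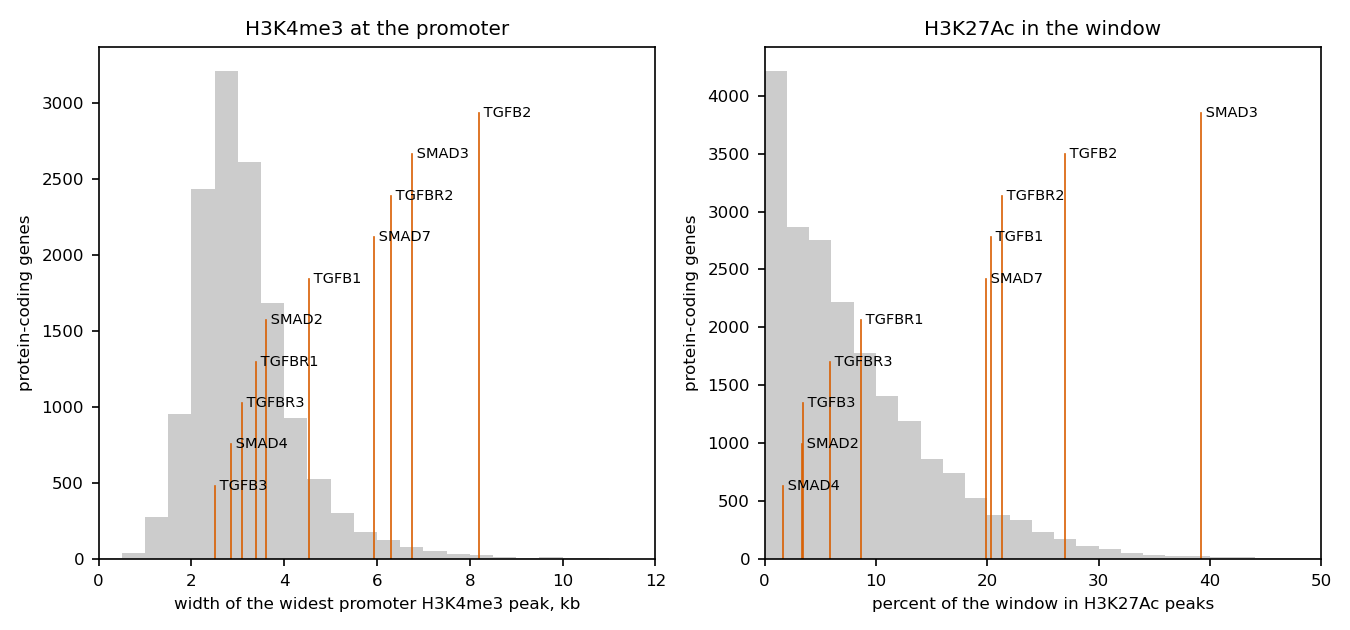
Distribution over protein-coding genes (grey, y axis, number of genes) of the width of the widest promoter H3K4me3 peak (left, x axis, kb) and of the percent of the window in H3K27Ac peaks (right, x axis), with orange lines at the 10 genes whose heights have no meaning. TGFB2, SMAD3, TGFBR2 and SMAD7 lie in the right tail of the left panel, at 8.20, 6.75, 6.30 and 5.93 kb. In the right panel SMAD3 lies farthest right of the 10 genes, at 39.2%.

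Set against all protein-coding genes, the 10 genes differed widely among themselves. Their promoter H3K4me3 peaks had a median width of 4071 bp, against 2973 bp for all genes with one. The median share of the window in H3K27Ac was 14.3%, against 6.17% for all protein-coding genes. SMAD3, TGFB2, TGFBR2, TGFB1 and SMAD7 had between 19.9% and 39.2%, and the remaining genes had 8.63% or less. Distal H3K27Ac peaks numbered 1.59 per 100 kb in the median gene, against 0.519.

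Of the 38 distal H3K27Ac peaks in the windows, 34 had the gene itself as the nearest coding gene. H3K4me1 was present at 27 of the 38 (71.1%) and FAIRE at 26 (68.4%), close to the shares of 69.5% and 74.1% in the whole list. H3K27Ac was present at 56 of the 65 distal FAIRE peaks (86.2%), compared with 66.7% of all distal FAIRE peaks. Most of the 56 lay at 2 genes, SMAD3 (17 of 17 with H3K27Ac) and TGFB2 (16 of 17). Distal FAIRE peaks without H3K27Ac were most numerous at TGFBR3, where 8 of 14 had it (57.1%).

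Of 54 other genes of the pathway, 45 had promoter H3K4me3 (83.3%), 44 H3K27Ac (81.5%), 17 H3K4me1 (31.5%) and 21 FAIRE (38.9%). The shares of all protein-coding genes were 67.3%, 63.5%, 20% and 39.3%, so the FAIRE share was that of the background. Among the other receptors and partners, 8 of 9 had promoter H3K4me3 (88.9% against 67.3%), the exception being ACVRL1, a type I receptor of endothelial cells. Promoter H3K4me1 was found at 1 of the 9 (11.1% against 20%), and promoter FAIRE also at 1 (11.1% against 39.3%). ACVR1 and ACVR2B had 2 distal H3K27Ac peaks each, and ACVR1C and BMPR1A were among those with 1. TGFBR2 and TGFBR3 had 6 each and TGFBR1 had 2. Per 100 kb there were 3.20 at TGFBR2, 1.84 at TGFBR3, 1.44 at ACVR2B and 1.33 at TGFBR1.

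Of 10 genes that hold the latent ligand or release it, 9 had promoter H3K4me3 (90.0% against 67.3%). LTBP1, which tethers the latent complex to the matrix, had 11 distal H3K27Ac peaks (1.99 per 100 kb) and 9 open acetylated distal H3K4me1 peaks. ITGB6, a subunit of an integrin that activates latent ligand, lacked promoter H3K4me3 and H3K27Ac but had 7 distal H3K27Ac peaks in its window (3.49 per 100 kb). LTBP2 had 4, and LTBP4 was among those with 3.

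The 4 other SMADs all had promoter H3K4me3, against 67.3% of protein-coding genes. Promoter H3K27Ac was found at 3 of the 4 (75.0% against 63.5%), the exception being SMAD9. SMAD6, an inhibitory SMAD of the BMP branch, had 5 distal H3K27Ac peaks (2.77 per 100 kb), while SMAD1, SMAD5 and SMAD9 had 0. All 12 regulators had promoter H3K4me3 and H3K27Ac, against 67.3% and 63.5% of protein-coding genes. Distal H3K27Ac peaks numbered 10 at NEDD4L, 7 at SMURF1 and 6 at SMURF2, which are ubiquitin ligases that act on receptors and SMADs, and 4 at TGIF1, a corepressor of SMADs. Per 100 kb the order differed, with 3.23 at SMURF1, 2.73 at SMURF2, 2.70 at TGIF1 and 2.19 at NEDD4L. Of 8 activin and nodal ligands, 3 had promoter H3K4me3 (37.5% against 67.3%), and INHBC, NODAL, LEFTY1, LEFTY2 and MSTN had none. INHBA and INHBB, subunits of activins, had 2 distal H3K27Ac peaks each, and GDF11 and INHBC were among those with 1.

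Among 12 known targets, 10 had promoter H3K4me3 (83.3% against 67.3% of protein-coding genes) and 11 promoter H3K27Ac (91.7% against 63.5%). CDKN2B, an inhibitor of the cell cycle, had no peak of any list within 50 kb. Whether the DNA of this window is intact in the line cannot be told from peak lists and was not tested. TAGLN, a smooth muscle protein, had promoter H3K27Ac without H3K4me3. TGFBI, a matrix protein, had 7 distal H3K27Ac peaks, or 5.19 per 100 kb, above 99.8% of protein-coding genes. LTBP2, which is in this group too, had 4, and PTHLH, a hormone-like factor known in bone metastasis, was among those with 3.

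**Figure D5:**
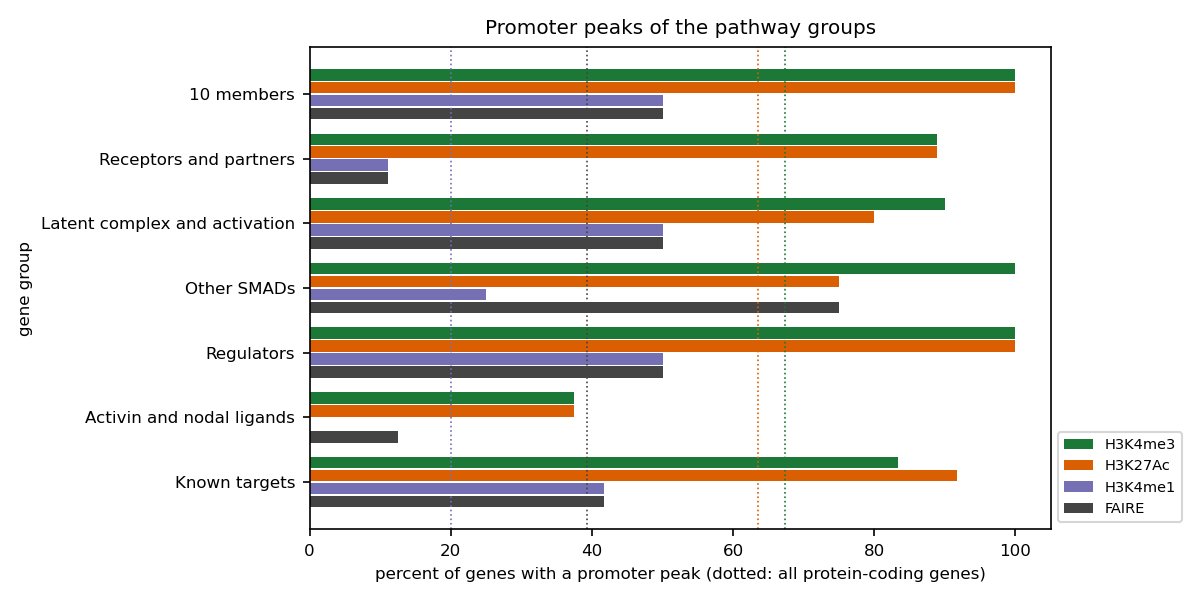
Percent of genes with a promoter peak (x axis) in each list for the 10 genes and for 6 groups of other pathway genes (y axis), with dotted lines at the percent of all protein-coding genes in the same colour. Activin and nodal ligands are the lowest group for H3K4me3, at 37.5%, and the 10 genes stand at 100 for H3K4me3 and H3K27Ac.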

How the data were processed

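Peak lists of MDAMB231 cells were used as deposited, 1 for each histone mark and 1 for FAIRE, and in each the authors had combined 2 samples and called peaks against input. Alignment to GRCh37 (hg19) was with BWA, duplicate and poorly mapped reads were discarded, and the peak callers were MACS for the histone marks and FindPeaks for FAIRE. The processing notes of the submitters also list TopHat and HOMER without a role. Histone peaks have the score deposited by the authors, the log10 of the MACS p-value multiplied by 10 and with its sign turned, and the lowest score was that of a p-value of 1e-05. FAIRE peaks have a signal height deposited by the authors, for which no scaling to depth is stated. Depth per sample is unknown from the lists, so a missing peak means not called at the depth used.

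Gene bounds, start sites and exons came from GENCODE release 44 mapped to GRCh37. Peaks overlapped where they shared 1 base or more. Counts were made in Python 3.11.15 with numpy 2.4.6 and pandas 2.3.3, tested on simulated intervals against bedtools 2.31.1. Sequences were read with an index from samtools 1.23.1, and figures were drawn with matplotlib 3.10.9. Starts of the lists were taken as counted from 0. The percent of genes with a lower value was taken over all protein-coding genes, or over those with a promoter peak for widths.

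The 10 genes and the lists of other genes were chosen with earlier results of these data known. All 10 genes are named. In each group of other pathway genes, those without promoter H3K4me3 and up to 4 with the most distal H3K27Ac peaks were named, with ties in alphabetical order, and 1 gene that this rule named is not reported here. For each of the 10 genes the tallest distal FAIRE peak with H3K27Ac and the widest distal H3K27Ac peak were named where there was one, and further peaks were chosen after their values were seen. The sequences with an AP-1 motif were chosen because they held it, after the middles of the tallest peaks were found to hold none. The search for the SMAD palindrome within 1 kb was added after that in 250 bases found none, and the search within H3K4me3 peaks after the match near SMAD7 had been seen. LTBP2 was in 2 groups and was counted once among the 54 genes. The endothelial marker PECAM1 was not found by symbol and was not used.

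The alternatives tried were other promoter widths (500 bp and 2 kb), coding transcripts, the most upstream start site, peak centres, stricter lists (MACS p at or under 1e-10, FAIRE height at or above the median), windows of 20 kb and 100 kb, and other definitions of distal.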

Additional observations from a re-analysis of the deposited data

How the results depend on the processing

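No paired analysis was possible because the authors combined the replicates of an assay into 1 list, so leaving out a replicate was not possible either. Of 46 alternative values for the 9 counts tried (promoter peaks and window peaks per list, and open acetylated distal H3K4me1 peaks), 38 were within 1.5 times the reported count. The counts of 10 genes with promoter H3K4me3 and with promoter H3K27Ac went no lower than 8 under the alternatives tried.

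The count of 5 genes with promoter H3K4me1 was 2 with the most upstream start site only, 2 with the centre of the peak required inside the promoter (8.64% of protein-coding genes), and 2 in the stricter lists. The count of 5 genes with promoter FAIRE was 3 with the most upstream start site only and 2 in the stricter lists. In the stricter lists the 87 FAIRE peaks in the windows became 48, and the 20 open acetylated distal H3K4me1 peaks became 11. With windows widened by 20 kb there were 10. Each of these alternatives takes fewer start sites, fewer peaks, a stricter overlap or shorter windows, and by construction none of them raises a count. Defining distal by the absence of H3K4me3, an alternative chosen after seeing the data, gave 24 open acetylated peaks. In the stricter list, also chosen after seeing the data for these values, the distal H3K27Ac peaks of SMAD7 and of CAV1 went from 8 to 5 each, and TGFBI had 7 as before. Depth, which is not known from the lists, limits every statement that a peak is missing.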

Other observations

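Among the marker genes, distal peaks were found both with and without promoter peaks. PTPRC, the leukocyte marker CD45, had no promoter peak in any list but had 6 distal H3K27Ac peaks within 50 kb. This was 2.74 per 100 kb, above the density of 95.4% of protein-coding genes. Its window had 3 open acetylated distal H3K4me1 peaks, and H3K27Ac covered 13.8% of it, against a median of 6.17% for all protein-coding genes. CDH1, which encodes E-cadherin, had promoter H3K27Ac and FAIRE without promoter H3K4me3, and 3 distal H3K27Ac peaks. ESR1, which encodes the oestrogen receptor, had promoter H3K4me3 without H3K27Ac, and 6 distal H3K27Ac peaks over a long window of which 1.94% was acetylated. CAV1, a marker of this line, had 8 distal H3K27Ac peaks, or 5.87 per 100 kb, above the density of 99.9% of protein-coding genes, next to 6.10 per 100 kb at SMAD7. With scores of at least 100, CAV1 had 5, or 3.67 per 100 kb, above 99.1%. These markers were chosen to check the label of the line, and the values were described after they were seen.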
